A study of Mus musculus with 10 samples.

Results

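The NR4A family of orphan nuclear receptors, Nr4a1, Nr4a2 and Nr4a3, was measured in the lungs of 10 grown female mice of the inbred strain C57BL/6. The members were all probe sets of the array whose single gene symbol was one of the 3 genes. This gave 10 probe sets of 45101 on the array, 1 for Nr4a1, 6 for Nr4a2 and 3 for Nr4a3. The family was chosen by measured values of the same comparison, in which Nr4a1 had the most negative difference of any probe set past the filter, so the differences of its members between arsenic and control lungs are a description and carry no test. The 5 arsenic mice drank water with 50 ppm arsenic for 12 weeks from an age of 8 weeks. The 5 control mice drank deionized water. Both groups were of the same sex and strain, and each mouse gave 1 Affymetrix Mouse430_2 array, an oligonucleotide array on which a probe set is a group of short probes for the same transcript. The series text names the compound arsenate and the sample protocols name arsenite, so it is called arsenic here. For control animal 4 the treatment field gives no dose, and its title gives 0 ppm.

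NR4A proteins bind DNA at the NBRE, an extended receptor half-site, and their ligand pocket is closed off by bulky side chains, so that their activity is set mainly by how much of each is made. The genes are immediate-early genes: growth factors, prostaglandins, cyclic AMP, calcium and inflammatory signals switch them on within minutes through CREB, MEF2 and SRF. In the lung and its blood vessels Nr4a1 is known in patrolling monocytes, which need it to form, in macrophages, in which it restrains inflammatory genes, and in endothelial and smooth muscle cells. In whole lung tissue, fewer cells of a type and less RNA per cell cannot be told apart.

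The sequences upstream of the start sites are shown because CREB, a known activator of all 3 genes, acts through the cyclic AMP response element in promoters. All 3 genes matched the RefSeq promoter table of build GRCm38.p6. For each, the 250 bases before the start were searched on both strands for the core of that element, TGACG, which reads CGTCA on the other strand, and for 6 other motifs. Capitals mark the core in Nr4a2 and Nr4a3, the longer form TGCGTCA, which overlaps the core, in Nr4a1, and a MEF2 box in Nr4a2. The Nr4a1 window, chr15:101266596-101266845 on the plus strand, lies inside the span of the gene (101253902 to 101274795), downstream of an earlier start. The Nr4a2 window, chr2:57124004-57124253, lies just upstream of the gene (57106830 to 57124003) and is written 5′ to 3′ on the minus strand. For Nr4a3, on the plus strand of chromosome 4, only the 3 stretches with a core are shown, chr4:48045055-48045082, chr4:48045083-48045112 and chr4:48045145-48045174, since most of its window overlaps another RefSeq transcript of the gene (48045078 to 48086447).
Nr4a1: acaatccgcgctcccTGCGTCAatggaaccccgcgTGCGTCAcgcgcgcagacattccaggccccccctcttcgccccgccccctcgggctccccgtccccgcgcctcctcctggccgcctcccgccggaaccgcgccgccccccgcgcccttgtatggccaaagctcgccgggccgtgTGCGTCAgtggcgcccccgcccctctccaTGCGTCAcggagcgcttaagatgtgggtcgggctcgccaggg
Nr4a2: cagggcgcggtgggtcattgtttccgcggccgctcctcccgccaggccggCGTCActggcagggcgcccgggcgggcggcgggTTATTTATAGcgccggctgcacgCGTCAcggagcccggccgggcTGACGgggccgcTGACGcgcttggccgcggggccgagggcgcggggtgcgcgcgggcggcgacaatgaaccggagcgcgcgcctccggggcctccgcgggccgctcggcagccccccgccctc
Nr4a3, first stretch: aggggagggaggaggagggTGACGtagc
Nr4a3, second stretch: gtcccatgtCGTCAcatTGACGtctcgcat
Nr4a3, last stretch: cctgtggcataaaTGACGtgccgagagagc

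Each of the 3 windows held the core 4 times. Of 32851 such windows in the table, 17.8% held it at least once and 45 (0.137%), these 3 among them, held it at least 4 times. In Nr4a1 the cores began 233, 213, 69 and 40 bases before the start. In Nr4a2 they began 200, 144, 123 and 111 bases before it, and in Nr4a3 231, 213, 205 and 147. The longer form TGCGTCA was found 4 times in Nr4a1 and not in the windows of Nr4a2 or Nr4a3, against 1.75% of all windows with at least 1. The MEF2 box, bound by the MEF2 factors, was found in Nr4a2 alone of the 3, from 167 to 158 bases before the start, and in 2.92% of all windows. The full palindrome TGACGTCA, which holds the core on both strands (1.55% of windows), the CArG box bound by SRF (1.47%) and the NBRE AAAGGTCA (1.34%) were in none of the 3. The EGR motif GCGNGGGCG, which is not capitalised, was found once each in Nr4a1 and Nr4a2 and in 4.70% of windows. The windows were rich in G and C, at 74.4% in Nr4a1, 80.0% in Nr4a2 and 63.6% in Nr4a3. The shares over all windows take no account of G and C content. A match of letters is a description and not a measured site, and the longer windows do not show which start the lung uses.

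Signals are the authors' log2 values after GCRMA, which corrects background with the probes' sequence and normalizes between arrays, so a difference of 1 is a 2-fold change. GCRMA pulls dim probe sets to a common floor, which makes their fold changes too small. Dim probe sets were left out: a set had to lie above 4.20, the median of all deposited values, on 5 or more of the 10 arrays, and 19490 with 1 gene symbol did. Where a gene had several such sets, the one with the highest mean stood for it, which left 11332 genes to test. Array medians lay between 4.11 and 4.26 and the arrays correlated at 0.990 to 0.997 over probe sets. The lung markers Sftpc, for surfactant protein C, and Scgb1a1, the club cell secretory protein, were near the top of the scale in both groups, at 16.08 ± 0.08 and 16.27 ± 0.05 in control and 16.03 ± 0.05 and 16.26 ± 0.05 in arsenic lungs (mean ± SD, n = 5 each). With limma's moderated test and Benjamini-Hochberg adjustment, 43 genes were higher and 11 lower in arsenic lungs at an adjusted p under 0.05, which is 0.379% and 0.0971% of the genes tested. Leaving out any 1 array gave 9 to 41 in all. Over all 11332 genes the median difference in log2 signal, arsenic minus control, was 0.057, and 36.8% were negative.

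Of the 10 NR4A probe sets, 6 passed the filter, all of them above 4.20 on all 10 arrays. Of those 6, 5 had a negative difference, 1 of Nr4a1 and 4 of Nr4a2, so they do not stand for separate genes. Over all genes tested, with 1 probe set each, 36.8% were negative. In 3 of the 6, 1 of Nr4a1 and 2 of Nr4a2, every arsenic value lay below every control value. Of all 19490 kept probe sets 1.23% had that order. Since the members were chosen on this contrast, nothing is read from either count. The 4 probe sets that did not pass, 2 of Nr4a2 and 2 of Nr4a3, had single values between 1.41 and 2.44 and differences from -0.05 to -0.02, and at signals so near the floor a change could not be read.

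Nr4a1, also called Nur77, is the member studied most in immune cells and vessels. Its probe set, 1416505_at, read 11.96, 12.11, 11.96, 11.12 and 12.57 in control animals 1 to 5. In arsenic animals 1 to 5 it read 9.11, 9.30, 9.28, 9.48 and 9.87. The groups were far apart: the lowest control, animal 4, was still 1.25 above the highest arsenic animal, number 5, and the 5 arsenic animals lay closer together than the controls. The means were 11.94 ± 0.53 in control and 9.41 ± 0.29 in arsenic lungs (SD, n = 5 each), a difference of -2.54 (SE 0.25), or a 5.80-fold lower signal with arsenic. It was the most negative difference of all 19490 kept probe sets. Nr4a1 has only this probe set, so no second set of probes stands beside it.

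Nr4a2, also called Nurr1 and best known for the dopamine neurons that need it, had 4 probe sets past the filter, and all 4 had lower means in the arsenic lungs. The brightest, 1455034_at, read 7.74, 7.60, 7.82, 8.09 and 8.60 in control animals 1 to 5 and 7.36, 7.09, 7.43, 7.52 and 6.98 in arsenic animals 1 to 5. No values overlapped, but only 0.083 separated control animal 2 from arsenic animal 4. The means were 7.97 ± 0.39 and 7.28 ± 0.23, a difference of -0.70 (SE 0.19) or 1.62-fold, and it was 297th of the 19490 kept probe sets from the most negative.

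The other Nr4a2 probe sets had the same sign and differed in how clearly the groups parted. The set 1450750_a_at read 6.56, 6.40, 5.88, 6.63 and 7.06 in control and 5.81, 5.42, 6.07, 5.83 and 4.95 in arsenic animals, a difference of -0.89 (SE 0.26) or 1.85-fold. There the groups overlapped, because arsenic animal 3 was above control animal 3. The set 1450749_a_at read 5.59, 5.66, 6.03, 5.48 and 5.71 in control and 5.29, 5.44, 5.36, 5.29 and 5.37 in arsenic animals, a difference of -0.34 (SE 0.09), with a gap of 0.043 between the groups. The set 1447863_s_at read 7.83, 7.22, 7.28, 7.70 and 7.76 in control and 7.24, 7.28, 7.04, 7.47 and 6.49 in arsenic animals, a difference of -0.46 (SE 0.20). It overlapped over several animals. Arsenic animal 5 had the lowest value of all animals in 3 of these 4 probe sets, although it was the highest of the arsenic animals for Nr4a1. The mean of all kept Nr4a2 probe sets differed by -0.60.

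Nr4a3, also called Nor1, which overlaps with Nr4a1 in function in blood cells and smooth muscle, had 1 probe set past the filter, 1438796_at. It read 6.30, 6.40, 6.47, 5.56 and 7.36 in control and 5.37, 7.13, 6.73, 6.62 and 6.56 in arsenic animals. The groups lay on top of each other: the lowest value came from arsenic animal 1 and the highest from control animal 5. The means were 6.42 ± 0.64 and 6.48 ± 0.66, a difference of 0.07 (SE 0.39), smaller than the spread within either group. It stood 11019th of 19490 from the most negative, near the middle. With array weights the sign turned, at -0.08. Depth in the sense of counts does not exist for arrays, and 5 animals in each group limit the precision.

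**Figure D1:**
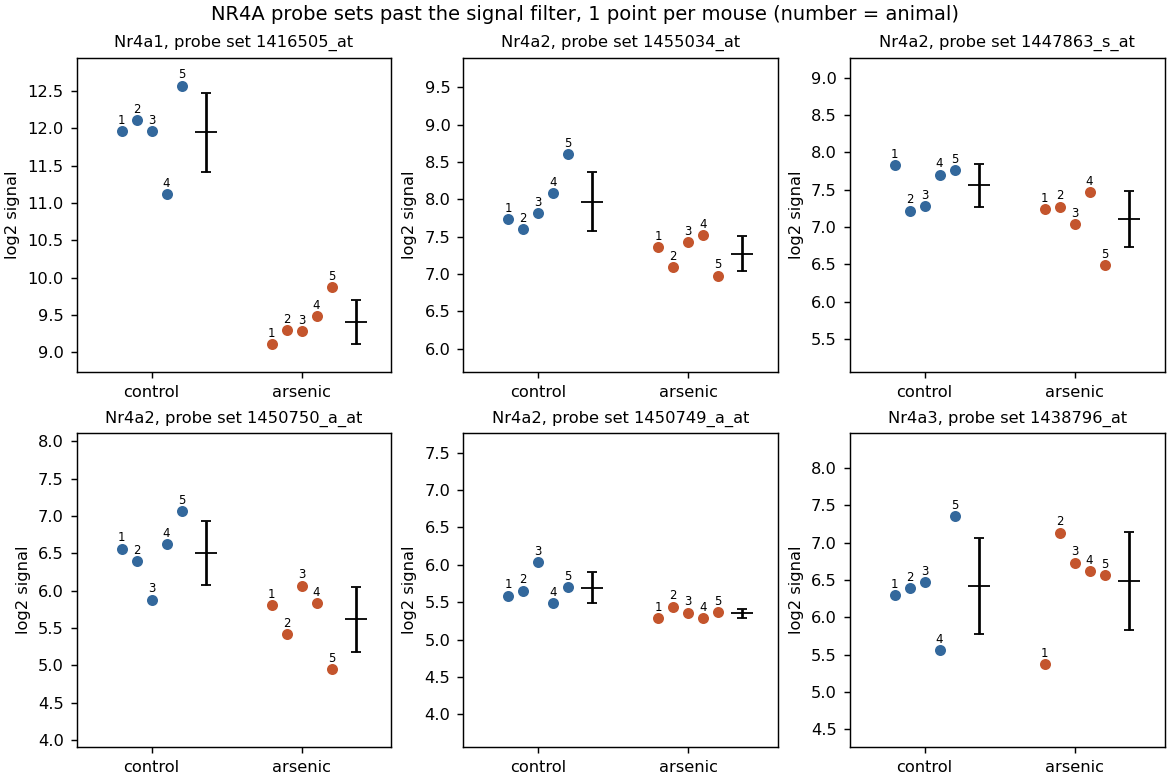
Log2 signal of the 6 NR4A probe sets past the filter in each of 5 control (blue) and 5 arsenic (orange) mice, numbered by animal, with the group mean and SD in black at the right of each group; every panel spans the same range of log2 units. Nr4a1 parts the groups by 1.25, Nr4a2 by 0.083 and 0.043 in 2 probe sets and not in the other 2, and Nr4a3 overlaps fully.

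The 3 genes were also compared with each other within groups. To leave out the difference between groups, each animal's deviation from its own group mean was taken for the main probe set of each gene, and the 3 pairs were compared over the 10 animals by an exact permutation of animals within groups. Nr4a1 and Nr4a3 had a Pearson r of 0.711 (p = 0.0332, adjusted over the 3 pairs 0.0996, exact permutation test, two-sided) and a Spearman rho of 0.479 (p = 0.167, adjusted 0.471). Without control animals 4 and 5, the farthest from the median of Nr4a1, r was 0.355 (p = 0.503, exact permutation test), so the relation rests largely on those animals, although removing the extremes of a measure also narrows its range. Without control animal 4 alone r was 0.570, and without control animal 5 alone 0.567. Control animal 4 was lowest of its group in both genes and control animal 5 highest in both. Nr4a1 and Nr4a2 had an r of 0.078 (p = 0.856, adjusted 0.856, exact permutation test) and a rho of -0.139 (p = 0.726). Without control animals 4 and 5 their r was -0.555. Nr4a2 and Nr4a3 had an r of 0.210 (p = 0.587, adjusted 0.856, exact permutation test) and a rho of 0.370 (p = 0.314, adjusted 0.471), and r was -0.419 without control animals 2 and 5. None of the 3 pairs passed the adjustment, which with 10 animals does not show that they vary apart.

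**Figure D2:**
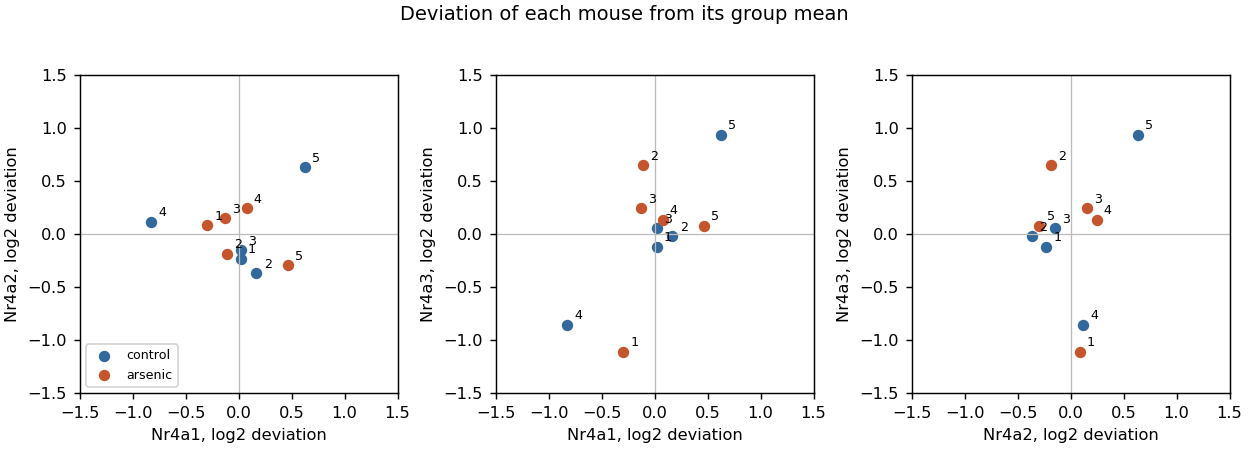
Deviation of each mouse's log2 signal from its group mean for the main probe sets of Nr4a1, Nr4a2 and Nr4a3, 1 panel per pair, with control mice in blue and arsenic mice in orange, numbered by animal. Control animal 5 is high for all 3 genes, and control animal 4 is low for Nr4a1 and Nr4a3 but not for Nr4a2.

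The genes that carry signals to the NR4A promoters were taken from fixed lists. Upstream activators, inducing signals and partner proteins of the family made 74 measured genes. None of the 74 passed the limma test in either direction, against 0.379% higher and 0.0971% lower over all genes, and 17 had an unadjusted p under 0.05, as had 1778 of all 11332 genes (15.7%). Their median difference was 0.029, against 0.057 over all genes, and 33 were negative.

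In the CREB pathway, which holds CREB, its coactivators, the cyclic AMP kinase and the enzymes that break the signal off, 0 of 16 measured genes passed by limma (6 at an unadjusted p under 0.05; median 0.010). Crem, whose ICER forms shut off promoters with cyclic AMP elements, read 7.88, 7.67, 7.91, 8.24 and 8.18 in control and 8.45, 8.51, 8.30, 8.48 and 8.65 in arsenic animals. All arsenic values lay above all control values, with a difference of 0.51 (SE 0.12), but the limma adjusted p was 0.108. The other kept Crem probe set differed by 0.22 (SE 0.13). The array does not tell ICER from the longer forms here. Pde4b, a cyclic AMP phosphodiesterase, differed by -0.72 (limma adjusted p = 0.220), and its other kept probe sets also had negative differences. Sik3, a kinase that holds the CREB coactivators out of the nucleus, differed by 0.27 (limma adjusted p = 0.208).

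Among MEF2 factors, class IIa deacetylases, calcineurin and NFAT genes, 0 of 18 passed by limma (3 at an unadjusted p under 0.05; median -0.02). Mef2c differed by -0.49 (limma adjusted p = 0.180) and was negative in all 5 of its kept probe sets. Hdac9, a deacetylase that represses MEF2, differed by -0.41 (adjusted p = 0.181) and Nfatc1, a calcineurin-dependent factor, by 0.29 (adjusted p = 0.274). Of the MAP kinases, SRF and its cofactors, 0 of 12 passed by limma (1 at an unadjusted p under 0.05; median 0.065). The stress kinase gene Mapk8 differed by -1.01 (adjusted p = 0.158), but another of its kept probe sets differed by 0.098, in the other direction. Mapk7, the ERK5 kinase that acts on MEF2, differed by 0.24 and Map2k1, which activates ERK, by 0.15, with adjusted p of 0.404 and 0.406.

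Among signals known to induce NR4A genes and their receptors, 0 of 11 passed by limma, with 5 at an unadjusted p under 0.05 and a median of -0.19. The lowest was Ptgs2, the inducible cyclooxygenase whose product prostaglandin E2 raises cyclic AMP. It read 8.57, 8.04, 8.91, 9.17 and 9.37 in control and 6.95, 7.92, 7.16, 7.61 and 7.60 in arsenic animals. Every arsenic animal was below every control, by a mean of -1.36 (SE 0.26), and the limma adjusted p, 0.0551, missed the threshold. The genes of both cyclic AMP-coupled prostaglandin E2 receptors had positive differences, Ptger4 by 0.45 (adjusted p = 0.138) and Ptger2 by 0.55 (adjusted p = 0.179).

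Of proteins that pair with NR4A receptors or change their activity, 0 of 17 measured genes passed by limma (2 at an unadjusted p under 0.05; median 0.076). They include the retinoid X receptors, with which Nr4a1 and Nr4a2 form dimers. Rxrb differed by 0.17 (SE 0.07, adjusted p = 0.294). Cdkn1c, whose product p57 binds Nr4a2, differed by 0.33, and Bcl2, whose protein binds Nr4a1 at mitochondria, by -0.32 (adjusted p = 0.316 and 0.333). The other kept Bcl2 probe sets, which were dimmer, differed by -1.05 (SE 0.37) to -0.50 (SE 0.32).

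Genes reported elsewhere as targets of the family made 26 measured genes, of which 1 rose and 0 fell by limma, against 0.379% and 0.0971% of all genes. At an unadjusted p under 0.05 there were 6 of the 26, against 15.7% of all genes, and the median difference was 0.044, against 0.057. The one that rose was Cdkn1a, the p53 target that encodes the cell cycle inhibitor p21. It read 10.44, 10.69, 10.58, 10.43 and 11.12 in control and 11.22, 11.59, 11.68, 11.92 and 11.87 in arsenic animals, with no overlap. Its difference was 1.00 (SE 0.16, limma adjusted p = 0.0326). The call held in 2 of 10 fits that left out 1 array and in 8 of 13 other fits, and ended without the filter (adjusted p = 0.0850).

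Targets in immune and vascular cells otherwise did not pass, 13 of 14 (4 of the 14 at an unadjusted p under 0.05). Bcl2l11, the cell death gene induced by Nr4a1 in T cells, differed by 0.33 (adjusted p = 0.177), Ikzf2, which encodes Helios, by -0.68 (adjusted p = 0.243) and Ccnd2, a cyclin, by -0.24 (adjusted p = 0.256). Of the metabolic targets 0 of 9 passed by limma (1 at an unadjusted p under 0.05; median 0.047), among them Lpin1, a phosphatidate phosphatase, at 0.26 (adjusted p = 0.235). Fbp1, a gluconeogenic enzyme that the kidney also makes, read 6.17 ± 2.11 in control and 8.15 ± 1.07 in arsenic lungs (adjusted p = 0.327). With the level of kidney transcripts as a covariate its difference went from 1.97 to -0.13. Of 17 targets fixed from neurons and endocrine cells only 3 were measured, and 0 of the 3 passed by limma (1 at an unadjusted p under 0.05): Bdnf, a neurotrophin, at -0.44 (adjusted p = 0.162), Ddc, which makes dopamine, at 0.48 (adjusted p = 0.345) and Ret, a growth factor receptor, at 0.13 (adjusted p = 0.437). With the kidney covariate the difference of Ddc went from 0.48 to 0.07 and that of Bdnf from -0.44 to -0.30, while Ret stayed at 0.13.

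Of 40 other immediate-early genes measured, 3 fell, Egr3, Klf2 and Klf4, none rose, and 37 did not pass the limma test, against 0.0971% lower and 0.379% higher over all genes. An unadjusted p under 0.05 was found for 13 of the 40, against 15.7% of all genes. The median difference was -0.11, against 0.057 over all genes, and 25 of 40 were negative, against 36.8% of all genes. Immediate-early genes had been seen to be low in earlier results of these arrays, so the count is no independent evidence of their direction. Egr3, a zinc-finger factor of the early growth response family, read 9.16, 8.05, 8.56, 8.35 and 9.81 in control and 5.24, 6.76, 6.52, 6.05 and 6.75 in arsenic animals. The groups did not overlap, and the difference of -2.53 (SE 0.37, limma adjusted p = 0.0216) was close in size to that of Nr4a1.

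Klf2, a flow-responsive factor of endothelial cells, fell by 0.88 on the log2 scale (SE 0.16, limma adjusted p = 0.0483), and Klf4, a related factor, fell by 0.55 (SE 0.10, adjusted p = 0.0443). With dim probe sets kept in, Egr3, Klf2 and Klf4 no longer passed, at adjusted p of 0.0685, 0.107 and 0.0734. Of the 10 fits that left out 1 array, Egr3 passed in 6, Klf2 in 1 and Klf4 in 0. Egr1, the best-known member of its family, differed by -1.30 and Ccn1, a matrix signalling protein, by -1.03, both with a limma adjusted p of 0.112. Of the 4 kept Ccn1 probe sets, 1 other was also negative (-1.10, SE 0.26), and 2 were positive with wide errors (0.99, SE 1.26, and 1.16, SE 1.38). Other immediate-early genes went the other way at similar p. Klf10 differed by 0.70 (limma adjusted p = 0.1125), with all arsenic values above all control values, and Myc by 0.74 (limma adjusted p = 0.125). Fkbp5 and Zbtb16, the leading rises of the series and both glucocorticoid targets, rose by 1.76 and 2.36 (limma adjusted p = 0.00629 for each).

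No other nuclear receptor passed. Of 25 measured, 0 passed the limma test, against 0.379% higher and 0.0971% lower over all genes. An unadjusted p under 0.05 was found for 6 of the 25, against 15.7% of all genes. Of the 25, 13 were negative, against 36.8% of all genes, and the median was -0.02, against 0.057. The receptors with the smallest p were the mineralocorticoid receptor Nr3c2 at -0.28 (adjusted p = 0.223), the progesterone receptor Pgr at -0.55 (adjusted p = 0.235) and the lipid sensor Pparg at 0.39 (adjusted p = 0.252). The glucocorticoid receptor gene Nr3c1 differed by -0.54 (SE 0.22, adjusted p = 0.283).

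**Figure D3:**
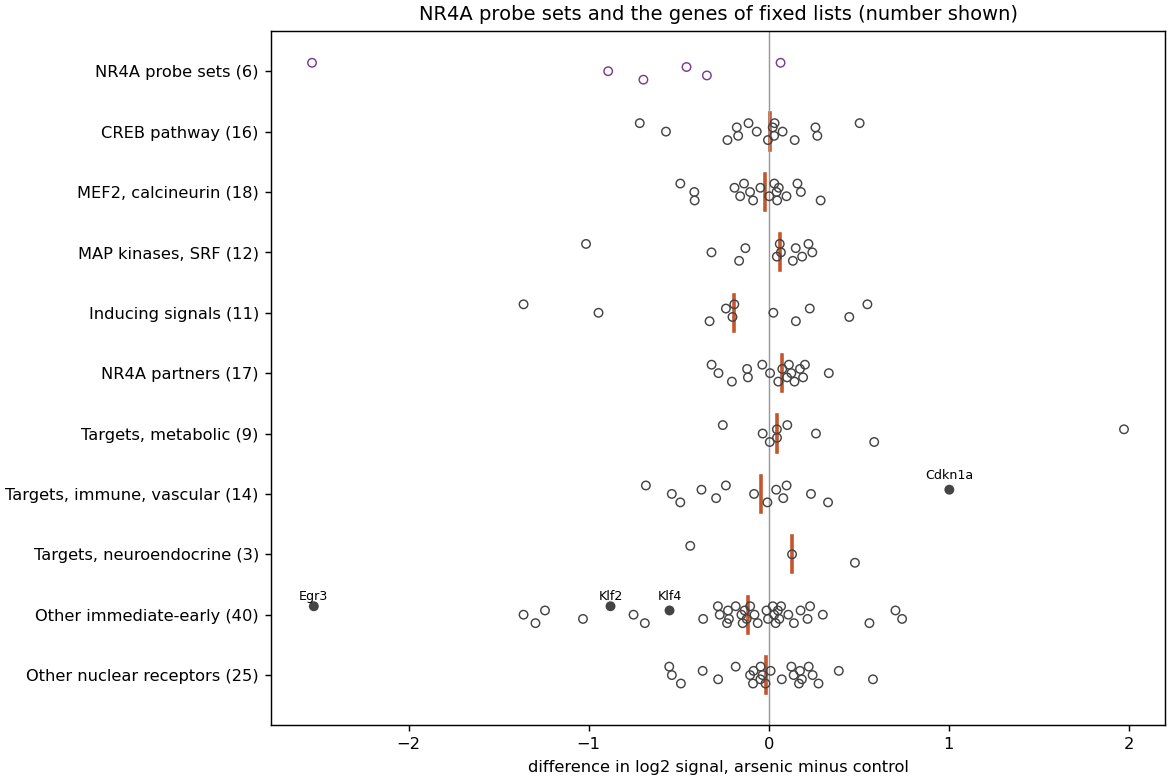
Difference in log2 signal, arsenic minus control, of the 6 kept NR4A probe sets (purple, not tested) and of each measured gene in 10 fixed lists, with the number of genes in brackets, filled points for genes past the limma threshold and an orange bar at each list's median. Nr4a1 at -2.54 and Egr3 at -2.53 stand farthest left, and Cdkn1a is the only filled point on the right.

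The genes whose deviations within groups were most like those of Nr4a1 were ranked over 11329 genes and the same 10 animals, as a description. The first 8 were Fblim1 (r = 0.952), E130309D02Rik (0.939), Ldb1 (0.939), Tram2 (0.937), Vps9d1 (0.927), Dazap2 (0.924), Zfp362 (0.921) and Col6a2 (0.916). Most of them did not share the difference between the groups: over all 10 arrays r was 0.558 for Fblim1 and -0.002 for Ldb1, while for Col6a2, a chain of collagen VI, it was 0.923. For Nr4a2 the nearest were Proz (0.885), D830026I12Rik (0.883), Pdk4 (0.882), Gk5 (0.859) and Cfap157 (0.858). For Nr4a3 they were Atp2a3 (0.970), Slc4a2 (0.965), Klhl21 (0.961), Gak (0.960) and Hgs (0.952). The 3 lists share no gene, but lists this short out of 11329 genes would seldom share any, so nothing is read from it. The named genes have the largest of 11329 r values over 10 animals, and how large these would be for unrelated genes was not tested. The Nr4a1 deviations were largest in control animals 4 and 5 (-0.828 and 0.625), which therefore weigh most in its r values. Those of Nr4a3 were largest in arsenic animal 1 (-1.11), control animal 5 (0.94) and control animal 4 (-0.85). Each animal gave 1 array, so tissue makeup and any handling of an animal are shared by all genes of its array.

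The 40 other immediate-early genes were set beside Nr4a1 in the same way, as a description with no test. Their deviations had a positive r with those of Nr4a1 in 38 of 40 genes and an r over 0.5 in 21, against 21.7% of all genes. The median r was 0.536, against 0.107 over all 11329 genes, of which 56.7% were positive. Nr4a1 deviated most in control animals 4 and 5 (-0.828 and 0.625), so those animals weigh most in each r. How far the r values depend on them was not tested. The small GTPase gene Rhob had an r of 0.834, Klf2 0.757, the AP-1 subunit Jund 0.708, the phosphatase Dusp1 0.663, Egr3 0.574 and Klf4 0.567. Lower values were those of Egr1 (0.278), Fos (0.096), Ptgs2 (0.086) and Klf6 (-0.258). These genes were picked out after their values were seen. Fkbp5 and Zbtb16, which rose, had an r of 0.298 and 0.367 with Nr4a1 within the groups.

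No marker of the cell types in which NR4A genes are known passed the limma test, against 0.379% higher and 0.0971% lower over all genes. Of 12 markers of patrolling monocytes, 10 were measured, and their mean log2 signal spanned 8.02 to 8.55 in control and 8.15 to 8.31 in arsenic animals. None of the 10 passed the limma test (1 at an unadjusted p under 0.05), 6 were negative, and Treml4 and Pou2f2 did not pass the filter. All 17 endothelial markers were measured, with means of 11.54 to 11.92 in control and 11.52 to 11.94 in arsenic animals, and 0 passed by limma (3 at an unadjusted p under 0.05). Alveolar macrophage markers, 11 of 13 measured, spanned 9.47 to 9.91 and 9.61 to 10.08, and 10 of the 11 were positive. B cell markers, 6 of 10 measured, were all negative, at 7.22 to 8.17 in control and 6.94 to 7.70 in arsenic animals. Cardiac muscle markers, 8 of 10 measured, were also all negative, at 7.47 to 10.16 in control and 6.90 to 10.34 in arsenic animals, with a median difference of -0.38 against -0.33 for the B cell markers. Club cell markers were negative in 6 of 6 and type 2 cell markers in 7 of 8, with median differences of -0.04 and -0.05. Smooth muscle markers, 9 of 10 measured, spanned 9.30 to 9.50 in control and 9.15 to 9.68 in arsenic animals. Of these 9, 3 were negative. Fibroblast markers were negative in 9 of 12. Among them Col3a1 differed by -0.39 (SE 0.08, limma adjusted p = 0.0841), with every arsenic value below every control value. Over all genes 36.8% were negative. Over 15 marker lists 0 of 115 genes passed by limma, and 61 were negative. An unadjusted p under 0.05 was found for 14 of the 115, against 15.7% of all genes. The part of these cells in the NR4A values was not tested.

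Transcripts of another organ, the kidney, had a higher mean level in the arsenic animals. Of 20 such transcripts 9 passed the filter, and 8 of the 9 were positive. The limma test was passed by 0 of the 9, against 0.379% higher and 0.0971% lower over all genes. An unadjusted p under 0.05 was found for 4 of the 9, against 15.7% of all genes. The 10 below the filter include the kidney markers Slc12a1, Slc12a3, Aqp2, Slc22a6 and Nphs1. The mean log2 signal of the 9 was 5.19, 6.69, 7.15, 7.87 and 6.43 in control and 7.78, 7.53, 7.52, 8.95 and 7.17 in arsenic animals. The groups overlapped through control animal 4, whose kidney level was above those of arsenic animals 1, 2, 3 and 5. Its Nr4a1 signal was 11.12, against 9.11 to 9.87 in the arsenic animals and 11.96 to 12.57 in the other controls. Control animal 4 thus had the highest kidney level and the lowest Nr4a1 signal of the controls. The part of kidney transcripts in the NR4A values was not tested. With the mean kidney level as a covariate, the difference of Nr4a1 was -2.28, that of Nr4a2 -0.84 and that of Nr4a3 0.29. In that fit 0 of 11332 genes passed by limma, with 2602 at an unadjusted p under 0.05, and Cdkn1a, Egr3, Klf2 and Klf4 had adjusted p of 0.107, 0.105, 0.114 and 0.107.

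**Figure D4:**
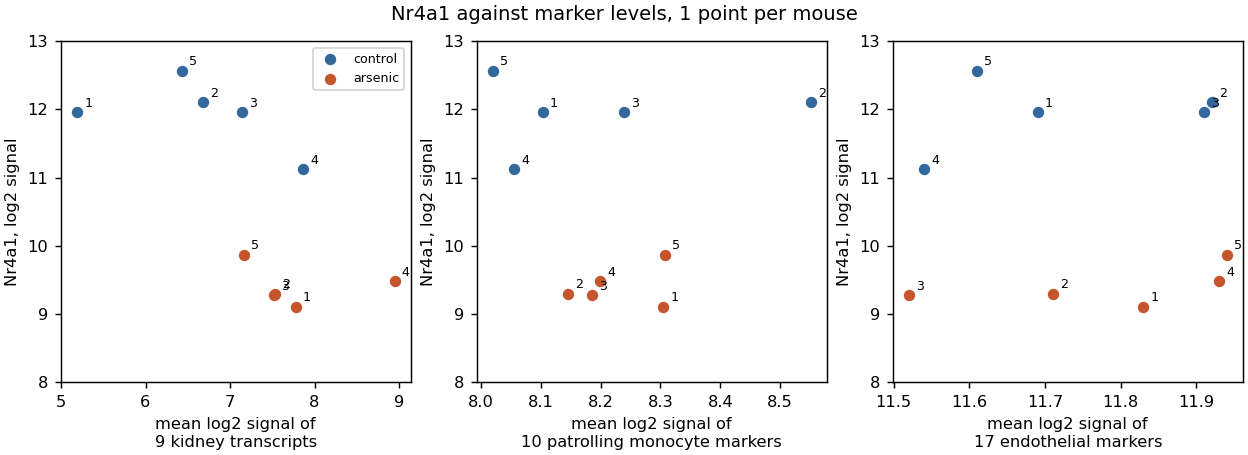
Nr4a1 log2 signal of each mouse against the mean log2 signal of 9 kidney transcripts, 10 patrolling monocyte markers and 17 endothelial markers, with control mice in blue and arsenic mice in orange, numbered by animal. The groups part along the vertical axis in each panel and overlap along every horizontal axis. Control animal 4 reaches 7.87 for kidney transcripts, the highest of the controls, with an Nr4a1 signal of 11.12, the lowest of the controls.

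RNA quality was close in both groups. The log2 difference between the 3′ and 5′ control probe sets of Actb lay between 0.578 and 0.651 in control and between 0.502 and 0.697 in arsenic animals. That of Gapdh lay between -0.539 and -0.482 and between -0.570 and -0.421. The titles of all arsenic animals begin their animal code with one number and those of all controls with another, and its meaning is not given. Should the number stand for a cage or a batch, its effect and that of the exposure cannot be told apart.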

How the data were processed

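RNA of 10 lungs, 1 animal per array, was hybridised to Affymetrix Mouse430_2 arrays. The deposited log2 values were made with GCRMA, per the submitters' processing notes; its version is not given in the sources used here, and scanner files were not used here. Names came from the platform's annotation: 34945 had 1 symbol and were no control, 932 had several symbols and 9211 were not listed. The members and gene lists were chosen with earlier results of these data known. In R 4.3.3, limma 3.58.1 (lmFit, eBayes) was fitted to all 11332 genes, arsenic against control without covariates, with 2.82 prior degrees of freedom. P-values were adjusted over all genes by the Benjamini-Hochberg method, and the script was tested on simulated data. SEs of the NR4A probe sets and of further probe sets of named genes came from the same model fitted to all 34945 without the filter. SEs of the 2 fits differ: that of Egr3 was 0.37 in the first and 0.40 in the second. Deviations from group means were compared by exact permutation over 14400 orders within groups (numpy 2.4.6, with ranks from scipy 1.17.1). Figures used matplotlib 3.10.9. The labels give each animal its own number, so replicates are separate animals.

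Named were all members, each list's called genes and up to 3 others with the smallest p, the 8 or 5 genes most like each member within groups, Fkbp5, Zbtb16, Sftpc and Scgb1a1. Others, such as Nr3c1, Klf10, Myc, Rhob, Jund, Dusp1, Fos and Klf6, were named after their values were seen. Alternatives were other filters, probe set rules and normalizations, trended or robust eBayes, weights per array, centring of each array on its median, a kidney covariate, the replicate number as a block, an equal-variance t-test, and leaving out arrays.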

Additional observations from a re-analysis of the deposited data

Results flagged for a closer look

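In 4 of 58 groups of 5 animals, 1 animal stood apart from the others by more than chance usually gives; chance does this in about 1 in 20 groups. For the dim Nr4a2 probe set 1433423_at, arsenic animal 5 read 2.195, where the nearest of its group read 2.306; all values of that set lie below the filter. The same animal had the lowest mean log2 signal of its group for classical monocyte markers, 10.001 against the nearest at 10.51, and for club cell markers, 15.30 against 15.46. Arsenic animal 2 was highest for the 2 measured mast cell markers, 11.14 against 10.88. None of the main NR4A probe sets had such an animal in either group.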

How the results depend on the processing

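Under every alternative run, Nr4a1 and Nr4a2 stayed lower in arsenic lungs, at log2 differences of -2.74 to -2.28 and -0.85 to -0.52, while Nr4a3 ranged from -0.15 to 0.34. The count of genes past the threshold, 54, depended on the setting. It was 19 without the filter (16 higher, 3 lower), 0 with the kidney covariate (2602 at an unadjusted p under 0.05), 7 with the t-test with equal variances, 11 without arsenic animal 4 and control animal 2 together, and 9 (without arsenic animal 2) to 41 (without arsenic animal 1) with 1 array left out, and every left-out array but arsenic animal 1 lowered it by over 1.5 times. Median centring, which takes out the shift of the arrays, gave 43 higher and 5 lower. The count over upstream, partner and target lists, 1, was 0 without the filter, with the kidney covariate, by the t-test and without those 2 animals (30, 25, 22 and 23 at an unadjusted p under 0.05). It was 2 with array weights, with each probe set tested, with the variance rule and with trended eBayes, and 0 to 1 with 1 array left out. The correlation of Nr4a1 and Nr4a2 was -0.079 with the mean of kept probe sets and ranged from -0.717 to 0.301 with 1 array left out; that of Nr4a2 and Nr4a3 ranged from -0.444 to 0.382, in both cases lowest without control animal 5, and that of Nr4a1 and Nr4a3 from 0.567 to 0.821. Among the other immediate-early genes 0 to 2 passed with 1 array left out. Ptgs2 passed in 1 of 10 such fits and in 3 of 12 others (adjusted p 0.0277 to 0.167). Of the other nuclear receptors 0 passed under every setting, by limma or the t-test, with 2 to 8 at an unadjusted p under 0.05. The causes were not tested.

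Same-numbered animals of the 2 groups had deviations that correlated between -0.332 and 0.253. Animals with different numbers were not compared, so whether the replicate numbers pair the animals was not tested. With the replicate block 5 genes passed (2 higher, 3 lower), and 0 of the list genes (27 at an unadjusted p under 0.05).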
